A study of Mus musculus with 9 samples.

Results

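The miR-29 family was followed in small extracellular vesicles (smEVs) from mouse kidney medullary (KM) cells through its 3 members, mmu-miR-29a, mmu-miR-29b and mmu-miR-29c, called miR-29a, miR-29b and miR-29c from here on. They were taken as the rows of those names without a locus number, 3 of the 1164 miRNAs in the deposited count table, of which 469 had at least 1 count. KM cells are immortalised lines from the mouse kidney medulla. The WT, Bbs4-/- and Bbs6-/- groups were each a single line, so a difference between lines of other origin and the effect of the genotype cannot be told apart. All cells were grown to confluency and kept without serum for 24 h, a step that induces cilia, and 3 smEV pellets of each genotype gave the small RNA libraries. Bbs4 is a subunit of the BBSome, a complex that carries membrane proteins to and from the cilium, and Bbs6, which resembles a chaperonin, helps to build that complex. The Bbs4 and Bbs6 transcripts are no rows of a miRNA table, so the genotypes could not be checked here. The comparisons asked whether the members differed between smEVs of each mutant and WT, and between those of the mutants.

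A mature miRNA guides Argonaute to mRNAs, mostly through pairing of its seed, bases 2 to 8 from its 5′ end, and the mRNA is then repressed. The miR-29 family is known for repressing collagens and other matrix genes, and its fall under TGF-β is a well-known feature of kidney fibrosis. Small vesicles released by cells carry miRNAs into the medium. The counts describe that released cargo, not the level in the cells.

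The mature 3p sequences of the family in the RefSeq miRNA table (GRCm38.p6) show what the members share, and the 5p sequence of the miR-29b-1 hairpin is given because a separate row of the counts bears its name. Capitals mark the seed.
miR-29a-3p: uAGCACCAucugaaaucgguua
miR-29b-3p: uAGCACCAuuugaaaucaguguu
miR-29c-3p: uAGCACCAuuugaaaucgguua
miR-29b-1-5p: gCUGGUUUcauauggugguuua
The seed AGCACCA was common to all 3 members, and no other of the 1679 mature miRNA names in the table carried it. Counted from 1 at the 5′ end, miR-29a and miR-29c differed at 1 of 22 positions, C10U. miR-29a and miR-29b differed at 4 of 22 positions, C10U, G18A, U21G and A22U. miR-29b and miR-29c were identical over their first 17 bases. The 5p strand of miR-29b-1 has a different seed, CUGGUUU. The count table does not name the arm of a row, so that the rows of miR-29a, miR-29b and miR-29c hold the 3p strand is taken from their names and was not tested, and a row may hold counts of the other arm. No other row held the same 9 counts as any of these members.

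The label of a collagen-targeting family was set against the annotation by searching for TGGTGCT, the DNA letters that pair with bases 2 to 8, on the sense strand of the longest 3′ UTR of each gene in GENCODE vM21. At least 1 match lay in 25 of 44 collagen chain genes (56.8%), against 2734 of 20968 genes (13.0%). The density was 0.693 matches per kb in the collagen UTRs and 0.106 per kb in all. Within the first 1000 bases of UTRs at least that long, 50.0% of the collagen UTRs and 10.1% of all UTRs held the motif. These 3 matches, in capitals, are shown as examples from 2 fibrillar collagens and a basement membrane collagen, on GRCm38. Col1a2, the partner chain of Col1a1 in type I collagen, had 0 matches in its UTR of 882 bases.
Col1a1 3′ UTR, chr11:94952527-94952548, plus strand: gaaggaatttcTGGTGCTatag
Col3a1 3′ UTR, chr1:45348971-45348992, plus strand: aaatgtctcaaTGGTGCTataa
Col4a1 3′ UTR, chr8:11199758-11199779, minus strand: ccgtcacaacaTGGTGCTactc
A match is a stretch of sequence and no measured site. The mRNAs themselves were not measured in these libraries.

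The members come from 2 hairpin pairs. Mir29a lies at chr6:31062660-31062747 and Mir29b-1 at chr6:31063023-31063093, both on the minus strand of GRCm38 with 276 bases from one to the other. Mir29b-1 overlaps an exon of the lincRNA Gm27019, and no other annotated gene overlapped Mir29a. Mir29b-2 lies at chr1:195037040-195037120 and Mir29c at chr1:195037547-195037634, both on the plus strand, 427 bases apart, where they overlap exons of the noncoding A330023F24Rik and, on the opposite strand, of Cd46. The mature miR-29b is the same from both of its hairpins, so its counts cannot be assigned to a chromosome.

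The libraries held 64118 to 457163 miRNA counts, with the 3 WT libraries the least deep. Pairs of libraries of a genotype differed by far more than counting error (chi-square over its degrees of freedom 12.4 or more). Levels are given as CPM, counts scaled to a common library total with TMM factors, and members are compared at nearly the same mature length. Among the epithelial markers, miR-200a, miR-200b and miR-429 were found in every genotype, whereas WT had 0 counts of miR-141 and 4 of miR-200c over 3 libraries. The fibroblast and smooth muscle markers miR-145a and miR-214 were at 0 in all libraries, and the 4 markers of that list summed to at most 273 CPM in Bbs4-/-, 71.8 CPM in Bbs6-/- and 162 CPM in WT. Libraries are named by the replicate numbers of the deposited columns, which run from 1 to 3 in Bbs4-/- and from 2 to 4 in Bbs6-/-, while the WT columns carry 1, 3 and 4. Where the labels do not tell the pellets' cultures apart, p-values measure only the spread between these libraries.

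miR-29a was by far the most abundant member and the one that differed between genotypes. It had 17527 counts in all, against 224 of miR-29b and 55 of miR-29c. In WT, miR-29a was at 4572, 6779 and 6376 CPM in replicates 1, 3 and 4. In Bbs4-/-, it was at 5559, 8123 and 6693 CPM in replicates 1, 2 and 3. In Bbs6-/-, it was at 8300, 13476 and 12552 CPM in replicates 2, 3 and 4. All Bbs6-/- libraries were above all libraries of the other genotypes, while the Bbs4-/- and WT ranges overlapped. Replicate 2 of Bbs6-/- lay close to the highest Bbs4-/- library. The plot of levels by library shows this order for miR-29a and the smaller counts behind the other members.

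**Figure D1:**
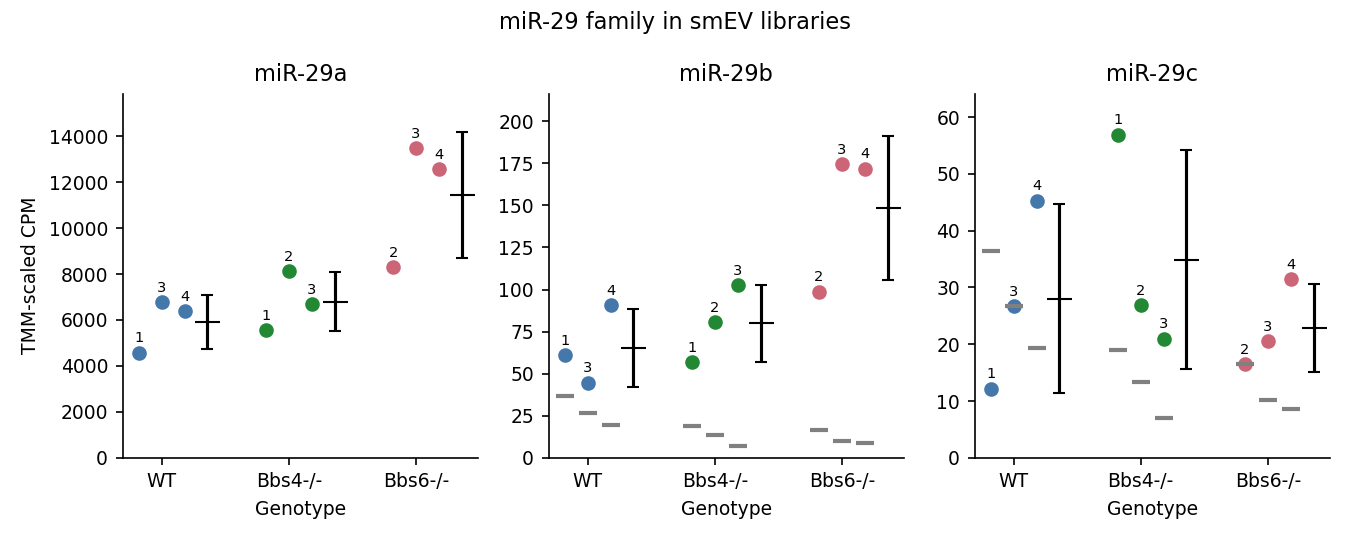
TMM-scaled CPM of each member (y axis, from 0) in the 9 smEV libraries by genotype (x axis). Points are libraries with their replicate number, black bars the mean ± SD (n = 3), and grey dashes in the miR-29b and miR-29c panels the level that a true count of 0 allows (3 counts). The Bbs6-/- libraries of miR-29a sit between 8300 and 13476 CPM, above all others, and several miR-29c points lie at or near the grey dashes.

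By rank, miR-29a stood at rank 20 and 21 in Bbs6-/- replicates 3 and 4 and at rank 27 in replicate 2, with rank 1 the most abundant miRNA. It stood at rank 27 to 35 in Bbs4-/- and 32 to 37 in WT, among 244 to 309 miRNAs detected per library. As a share of all counts, which needs no scaling factor, it made up 1.01% ± 0.221 in Bbs6-/-, 0.659% ± 0.179 in Bbs4-/- and 0.685% ± 0.0876 in WT (SD, n = 3 each). On this measure the lowest Bbs6-/- library, at 0.785%, was still above the highest WT library, at 0.753%, but below the highest Bbs4-/- library, at 0.851%.

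Between Bbs6-/- and WT smEVs, miR-29a rose. Its mean was 11443 ± 2761 CPM in Bbs6-/- and 5909 ± 1175 CPM in WT (SD, n = 3 each), a ratio of 1.94. The log2 fold change was 1.00 (standard error 0.25, 95% confidence interval 0.43 to 1.57, adjusted p = 0.0417, edgeR's quasi-likelihood test with Benjamini-Hochberg adjustment). A miRNA passed the test with an adjusted p under 0.1, and 1 of the 3 members did so, as did 15.1% of the 298 miRNAs tested (9.73% higher and 5.37% lower). Groups that did not overlap, with Bbs6-/- higher, were found for 17.4% of the miRNAs tested. Under the rule of the study, which also asks for a log2 fold change of at least 2, no member was differentially loaded in edgeR or DESeq2, and 4.03% of all miRNAs were. The median log2 fold change over all miRNAs tested was -0.011, and that of miR-29a lay above 77.5% of them. These shares and the median cover miRNAs of all levels, many with few counts. None was taken among miRNAs as abundant as miR-29a. Of other abundant miRNAs, let-7a (1.01), miR-125a (1.09) and miR-21a (1.18) passed with a rise of about that size. Others, such as miR-10b (-1.47) and miR-5126 (-1.51), passed with a fall. The libraries are bulk pellets of vesicles, so the number of vesicles and the cargo of each cannot be told apart. CPM gives a share of the miRNA cargo rather than molecules per vesicle.

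The call depended on scaling and on single libraries, and was lost in 4 of 15 alternatives. With DESeq2 size factors in edgeR, it was kept (0.97, adjusted p = 0.0424, edgeR). With total counts in place of TMM, the log2 fold change of miR-29a was 0.57 (adjusted p = 0.147, edgeR), while the median of all miRNAs moved to -0.44. Relative to that median, miR-29a stood 1.00 higher, against 1.01 with TMM. A change of scaling moves all miRNAs by nearly the same amount, so this distance could hardly differ and does not bear on the call. The call was lost without replicate 3 of Bbs6-/- (0.74, adjusted p = 0.256, edgeR), without replicate 1 of WT (0.89, adjusted p = 0.111, edgeR) and without replicate 4 of WT (0.98, adjusted p = 0.129, edgeR). It was firmest without replicate 2 of Bbs6-/- (1.21, adjusted p = 0.000539, edgeR). In all of these fits miR-29a was higher in Bbs6-/-. Library depth and the epithelial markers moved in the same direction: the 5 markers summed to 16556 to 21416 CPM in Bbs6-/- and 9996 to 13309 CPM in WT, but also to 16973 to 18931 CPM in Bbs4-/-. Of these 5, miR-200c and miR-141 passed in Bbs6-/- against WT (7.89 and 7.69, adjusted p = 0.00486 and 0.0608, edgeR). The others, miR-200a (0.74), miR-200b (0.47) and miR-429 (0.49), did not pass (adjusted p = 0.110, 0.110 and 0.221, edgeR). The 5 kidney tubule markers summed to 98041 to 114475 CPM in Bbs6-/- and 53823 to 97569 CPM in WT, and to 103338 to 121807 CPM in Bbs4-/-. Their members were split in Bbs6-/- against WT: miR-10a rose (log2 fold change 1.27, adjusted p = 0.0199, edgeR) and miR-10b fell (-1.47, adjusted p = 0.0177, edgeR). The others, miR-30a (0.050), miR-192 (0.62) and miR-194 (1.31), did not pass (adjusted p = 0.894, 0.681 and 0.372, edgeR). The 4 blood cell markers moved the other way, with 34.2 to 71.4 CPM in Bbs6-/- and 103 to 170 CPM in WT, as did the fibroblast and smooth muscle markers, with 20.0 to 71.8 CPM and 80.2 to 162 CPM. In Bbs4-/- these sums were 60.5 to 120 CPM and 123 to 273 CPM. They rest on few counts, with 33 of miR-143, 31 of miR-486a and 3 of miR-451a in Bbs6-/- and 39, 23 and 17 in WT. None of these passed in Bbs6-/- against WT (adjusted p = 0.266, 0.492 and 0.207, edgeR). The part of depth and of these markers in the result was not tested.

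**Figure D2:**
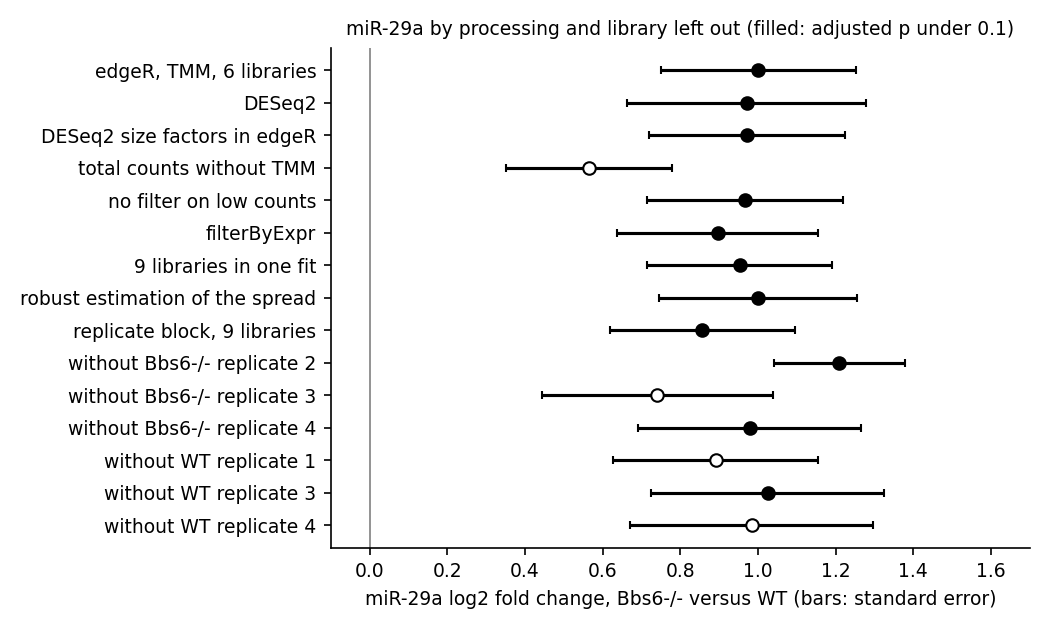
log2 fold change of miR-29a in Bbs6-/- against WT (x axis) under each processing alternative and with each library left out (y axis), with standard errors. Filled points have an adjusted p under 0.1, and all points lie between 0.57 and 1.21.

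In Bbs4-/- smEVs, no member passed the test against WT. miR-29a was at 6791 ± 1285 CPM (SD, n = 3), a ratio of 1.15 to WT. Its log2 fold change was 0.091 (standard error 0.23, 95% confidence interval -0.40 to 0.58, adjusted p = 0.841, edgeR's quasi-likelihood test). Of the 308 miRNAs tested, 15.3% passed (8.77% higher and 6.49% lower), and 6.17% were also past the fold of the study's rule. With total counts in place of TMM the log2 fold change of miR-29a was -0.058, so its direction against WT changed with the scaling. Of the 3 members, 0 passed in edgeR, 0 in DESeq2, and 0 had an unadjusted p under 0.05. The interval does not hold the change seen in Bbs6-/-, but the comparisons share the WT libraries, so the mutants were also compared directly.

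In the direct comparison, miR-29a was lower in Bbs4-/- than in Bbs6-/- smEVs, at the edge of the threshold. The log2 fold change was -0.75 (standard error 0.24, 95% confidence interval -1.26 to -0.24, adjusted p = 0.0998, edgeR's quasi-likelihood test on all 9 libraries). It was the only member to pass, beside 8.09% of the 309 miRNAs tested (4.21% higher and 3.88% lower in Bbs4-/-). No member was past the fold of the study's rule, and 3.88% of all miRNAs were. The ranges of the mutants did not overlap, which held for 7.77% of the miRNAs tested with Bbs4-/- lower. The call was lost with total counts (adjusted p = 0.150, edgeR), with edgeR's filterByExpr (adjusted p = 0.102) and without any of 5 libraries. Without replicate 1 or 3 of Bbs4-/- the log2 fold change was -0.67 or -0.90 (adjusted p = 0.367 or 0.213, edgeR). Without replicate 3 or 4 of Bbs6-/- it was -0.73 or -0.68 (adjusted p = 0.248 or 0.222, edgeR), and without replicate 3 of WT -0.81 (adjusted p = 0.143, edgeR). DESeq2 kept it (log2 fold change -0.82, adjusted p = 0.0412). A test for any difference among the 3 genotypes was passed by miR-29a (adjusted p = 0.0258, edgeR's quasi-likelihood F-test) and by 22.0% of the 309 miRNAs, and it too was lost with total counts (adjusted p = 0.128, edgeR). In order of mean level, miR-29a stood highest in Bbs6-/-. Bbs4-/- and WT did not differ beyond their spread, and their order depended on the scaling, with Bbs4-/- above WT in TMM-scaled CPM and below it as a share of all counts (0.659% and 0.685%).

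**Figure D3:**
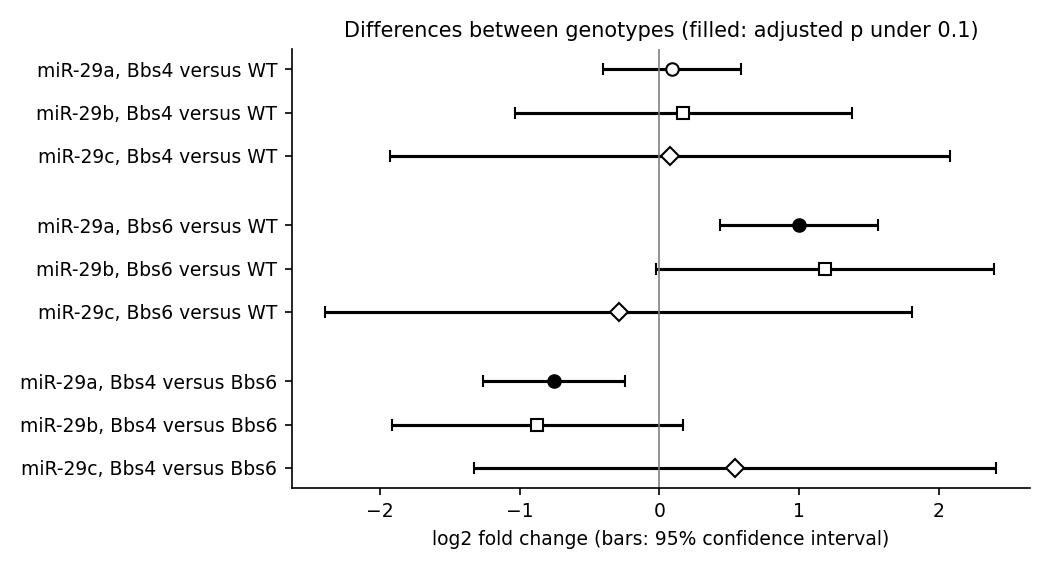
log2 fold change (x axis) of the 3 members in the 3 comparisons (y axis), with 95% confidence intervals from edgeR; filled points have an adjusted p under 0.1. Filled are miR-29a in Bbs6-/- against WT (1.00) and in Bbs4-/- against Bbs6-/- (-0.75), and the intervals widen from miR-29a to miR-29c.

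miR-29b ran close to miR-29a in its means but rested on few counts, and it passed no test. It had 5, 5 and 14 counts in WT replicates 1, 3 and 4, which is 60.8, 44.5 and 90.5 CPM. In Bbs4-/- it had 9, 18 and 44 counts in replicates 1, 2 and 3, or 56.9, 80.6 and 102 CPM. In Bbs6-/- it had 18, 51 and 60 counts in replicates 2, 3 and 4, or 98.8, 174 and 172 CPM. Every Bbs6-/- library was above every WT library, as was the case for 17.4% of the miRNAs tested, and Bbs4-/- overlapped both. The log2 fold change was 1.19 in Bbs6-/- against WT (standard error 0.54, 95% confidence interval -0.022 to 2.40, adjusted p = 0.228, edgeR's quasi-likelihood test). Without replicate 2 of Bbs6-/- it was 1.42 and passed (adjusted p = 0.0709, edgeR). Against WT, Bbs4-/- had a log2 fold change of 0.17 (95% confidence interval -1.04 to 1.38, adjusted p = 0.883, edgeR), and against Bbs6-/- one of -0.87 (95% confidence interval -1.92 to 0.17, adjusted p = 0.407, edgeR).

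miR-29c was near the limit of detection in all genotypes. It had 1, 3 and 7 counts in WT replicates 1, 3 and 4, 9, 6 and 9 counts in Bbs4-/- replicates 1, 2 and 3, and 3, 6 and 11 counts in Bbs6-/- replicates 2, 3 and 4. The CPM ranges of all genotypes overlapped, with means of 28.0 ± 16.6 CPM in WT, 34.9 ± 19.3 CPM in Bbs4-/- and 22.8 ± 7.78 CPM in Bbs6-/- (SD, n = 3 each). A true count of 0, taken to allow 3 counts, corresponded to 6.99 CPM in the deepest library and 36.5 CPM in the shallowest. The log2 fold change was 0.077 in Bbs4-/- and -0.29 in Bbs6-/- against WT, with 95% confidence intervals of -1.93 to 2.08 and -2.39 to 1.81 (adjusted p = 0.994 and 0.894, edgeR). Changes of that size in either direction were not detectable at this depth.

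Within the family, miR-29a made up 97.9% to 99.0% of the counts of the 3 members, so the make-up was followed through the shares of the minor members. These ran from 0.650% to 1.50% for miR-29b and from 0.150% to 1.00% for miR-29c over the libraries, and neither share passed a test between genotypes. miR-29b took 1.16% ± 0.296 in Bbs4-/-, 1.27% ± 0.0867 in Bbs6-/- and 1.12% ± 0.406 in WT (SD, n = 3 each). These shares gave an exact permutation p of 0.829 over the 280 partitions of the libraries into 3 groups of 3 (one-sided for a large spread between groups, smallest possible p = 0.00357). miR-29c took 0.546% ± 0.396 in Bbs4-/-, 0.198% ± 0.0485 in Bbs6-/- and 0.449% ± 0.223 in WT (exact permutation p = 0.271, SD, n = 3 each). The lowest miR-29c shares were those of Bbs6-/-, but the 95% Wilson intervals of single libraries were wide, such as 0.0688% to 0.327% in Bbs6-/- replicate 3 and 0.0462% to 1.47% in WT replicate 1. Since miR-29c differs from miR-29a by the single base C10U in the 3p arm, the part of miR-29a reads with that base misread was not tested.

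**Figure D4:**
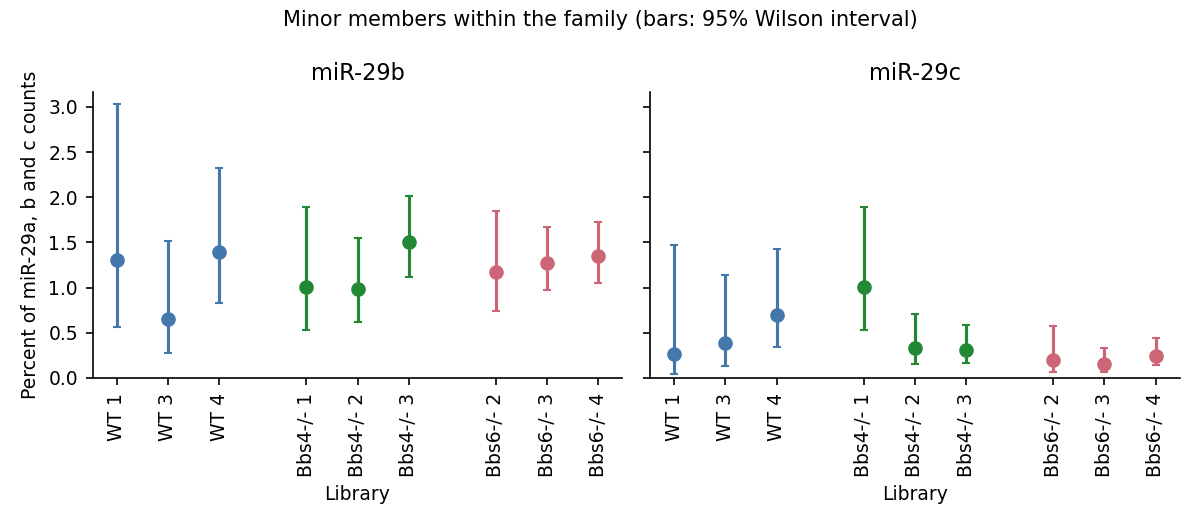
Share of the miR-29a, miR-29b and miR-29c counts of each library that were miR-29b (left) or miR-29c (right), in percent (y axis), by library (x axis), with 95% Wilson intervals for counting error. The miR-29b shares lie between 0.650% and 1.50% in all 9 libraries, and the miR-29c shares between 0.150% and 1.00%.

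Rows with a locus number give a view of the hairpins, since miR-29b-1 and miR-29b-2 are the names of their 5p strands in RefSeq. miR-29b-2, from the hairpin beside Mir29c on chromosome 1, had 0 counts in all 9 libraries, which allows a share of up to 0.000656% in the deepest library and 0.00468% in the shallowest. miR-29b-1, from the hairpin beside Mir29a on chromosome 6, had 21, 12 and 60 counts in Bbs4-/- replicates 1, 2 and 3. It had 10, 20 and 14 counts in Bbs6-/- replicates 2, 3 and 4, and 4, 2 and 6 in WT replicates 1, 3 and 4. In CPM, every Bbs4-/- library was above every WT library, as was the case for 20.8% of the miRNAs tested. The log2 fold change of miR-29b-1 in Bbs4-/- against WT was 1.52 (95% confidence interval 0.15 to 2.89), which did not pass (adjusted p = 0.158, edgeR). In Bbs6-/- it was 0.64 (adjusted p = 0.671, edgeR).

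Seen among all miRNAs, miR-29a combined a high level with a modest change. The plot of level against change places it among the abundant miRNAs, and miR-29b and miR-29c among the rarer ones, where changes scattered more widely. Changes at high levels were not all small. miR-6240, at a mean of 23560 CPM, had -1.83 in Bbs4-/- and -1.72 in Bbs6-/- against WT. miR-200c, at a mean of 2023 CPM, had 7.97 and 7.89.

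**Figure D5:**
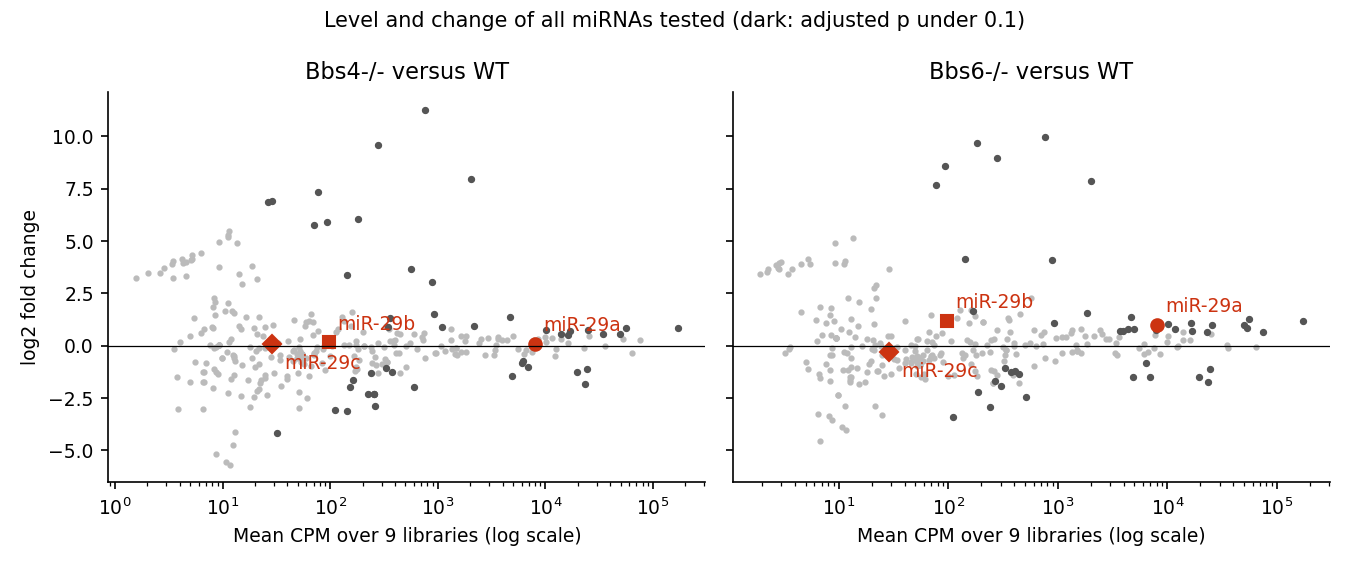
Mean CPM over 9 libraries (x axis, log scale) against the log2 fold change (y axis) of each miRNA tested in Bbs4-/- (left) and Bbs6-/- (right) versus WT. Dark points have an adjusted p under 0.1; the members are in red, with miR-29a at 0.091 on the left and 1.00 on the right.

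The miRNAs whose log2 CPM followed miR-29a most closely over the 9 libraries were looked for among 82 others with a mean of at least 100 counts. These were miR-200a (Pearson r = 0.915), miR-181a (0.878), miR-27b (0.875), miR-191 (0.844) and miR-125a (0.835). The values are descriptive, as the points share libraries, scaling and genotype. These miRNAs were chosen for following miR-29a in the same libraries, so a similar pattern between genotypes was partly set by the choice. Their tests below describe them and are no separate evidence of likeness. Of the other members, miR-29b had r = 0.843 and miR-29c r = -0.052. miR-181a rose in Bbs6-/- against WT (log2 fold change 1.55, adjusted p = 0.00320, edgeR) and was lower in Bbs4-/- than in Bbs6-/- (-0.96, adjusted p = 0.0150, edgeR). miR-200a, which holds cells in an epithelial state, went from 1898 CPM in WT to 2272 CPM in Bbs4-/- and 3081 CPM in Bbs6-/- on average, and passed neither test against WT (adjusted p = 0.778 and 0.110, edgeR). miR-125a rose in Bbs4-/- (0.52, adjusted p = 0.0950, edgeR) and Bbs6-/- (1.09, adjusted p = 0.0417, edgeR), and miR-191 in Bbs6-/- (0.82, adjusted p = 0.0514, edgeR).

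miR-29 was also set beside 25 other miRNAs linked with kidney fibrosis in general knowledge, of which 18 had enough counts to be tested. In Bbs6-/- against WT, 6 of the 18 rose and 0 fell, beside 9.73% higher and 5.37% lower over all miRNAs tested, with a median log2 fold change of 0.69 over the 18, against -0.011 over all miRNAs. In Bbs4-/- against WT, 5 of the 18 rose and 0 fell, beside 8.77% higher and 6.49% lower over all miRNAs tested, with a median of 0.26 against -0.015. With total counts in place of TMM, 5 rose and 0 fell in Bbs4-/-, while in Bbs6-/- only miR-21a, miR-141 and miR-200c rose and miR-30c fell, and the calls over all miRNAs turned towards lower, with 22 higher and 29 lower in Bbs4-/- and 11 higher and 27 lower in Bbs6-/-. miR-21a, which is known to promote fibrosis, rose in both mutants, with 0.84 on the log2 scale in Bbs4-/- (adjusted p = 0.00964, edgeR) and 1.18 in Bbs6-/- (adjusted p = 0.00201, edgeR). miR-30d, of a family that protects kidney epithelium, rose by 0.71 in Bbs4-/- (adjusted p = 0.0176, edgeR) and 0.69 in Bbs6-/- (adjusted p = 0.0417, edgeR). Its relative miR-30a rose in Bbs4-/- (0.57, adjusted p = 0.0576, edgeR), whereas miR-26a and miR-26b rose in Bbs6-/- (0.80 and 0.70, adjusted p = 0.0417 and 0.0430, edgeR). The remaining pair, miR-200c and miR-141, passed in both mutants, over WT groups with 4 and 0 counts. Between the mutants, miR-30a and miR-30c were higher in Bbs4-/- (0.65 and 0.83, adjusted p = 0.0569 and 0.0350, edgeR), the opposite direction to miR-29a. The list holds miRNAs with opposite known roles, and both comparisons with WT share the WT libraries. The shares and medians over all miRNAs include many with few counts. Of the 6 that rose in Bbs6-/-, miR-21a, miR-30d, miR-26a and miR-26b had means of 171440, 16768, 11609 and 3959 CPM. miR-200c and miR-141 had 2023 and 77.3 CPM. No background of like level was drawn, so a difference of the list from all miRNAs cannot be told apart from one of level. The fibrosis-linked miR-214, miR-382, miR-433, miR-30f and miR-133b had 0 counts in all libraries.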

How the data were processed

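Small RNA from 9 smEV pellets was sequenced. The authors trimmed adapters (cutadapt 1.9), collapsed reads identical in sequence and molecular identifier, and counted miRNAs with miRDeep2 (mapper 2.0.0.8), keeping the largest count where a miRNA had several entries. The deposited values are these counts, not normalized. The miRBase release was not given in the sources used here. The submitters' notes name GRCm38.

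Groups follow the genotype labels. The column numbers of Bbs6-/- and WT differ from the labels, so those columns served as replicates of their genotype without a labelled sample. The study calls the pellets independent.

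Counts were fitted over the whole table in R 4.3.3 with edgeR 4.0.16 (TMM, quasi-likelihood test, Benjamini-Hochberg), on 6 libraries and totals of at least 6 counts for each mutant against WT, and on 9 libraries and at least 9 counts otherwise. Confidence intervals (95%) use a standard error derived from F. Log2 CPM used a prior count of 2. Alternatives were DESeq2 1.42.0, other scaling, filters and fits, leaving out libraries, and a block on the column number, which was added after seeing the data. The test was checked on simulated counts. Intervals of shares cover counting error only.

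Members, lists and tests were chosen with earlier results of these data known. Named are the members, the miR-29b locus rows, the 5 miRNAs most correlated with miR-29a, and the fibrosis-linked miRNAs that passed. The epithelial and fibroblast markers are given in the report. So are those of kidney tubule and blood cells. Endothelial miR-126a came to at most 136 CPM and the liver and serum miR-122 to at most 85.1 CPM. Python 3.11.15 with scipy 1.17.1 and matplotlib 3.10.9 served for permutation tests and figures.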

Additional observations from a re-analysis of the deposited data

Results flagged for a closer look

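The changes of miR-29a against WT in Bbs4-/- and Bbs6-/- differed from each other, with a log2 fold change of -0.75 between Bbs4-/- and Bbs6-/- (adjusted p = 0.0998, edgeR's quasi-likelihood test). All 3 Bbs4-/- libraries were below all 3 Bbs6-/- libraries in CPM, as for 7.77% of all miRNAs tested. As a share of all counts the ranges overlapped, with the lowest Bbs6-/- library at 0.785% and the highest Bbs4-/- library at 0.851%. The call was lost in 9 of 18 alternatives, over which the adjusted p ran from 0.00390 to 0.367 (edgeR or DESeq2).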

How the results depend on the processing

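With total counts in place of TMM, the log2 value of miR-29a was 0.57 in Bbs6-/- against WT, -0.62 between the mutants and -0.058 in Bbs4-/- against WT, its adjusted p for any difference was 0.128 (edgeR), and miR-29c had -0.084 in Bbs4-/- against WT. The first 2 and the test for any difference no longer passed, and both values in Bbs4-/- against WT changed sign. The calls over all miRNAs then turned from 29 higher and 16 lower to 11 and 27 in Bbs6-/-, from 27 and 20 to 22 and 29 in Bbs4-/-, and from 13 and 12 to 18 and 9 between the mutants. In Bbs4-/- against Bbs6-/-, miR-29a had -0.76 with filterByExpr and stayed at -0.75 with a threshold of 0.05, and passed in neither. That threshold left 26 of 45 calls over all miRNAs in Bbs6-/- and 13 of 25 between the mutants.

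Leaving out single libraries gave ranges, for miR-29a, of 0.74 to 1.21 in Bbs6-/- against WT, -0.998 to -0.67 between the mutants, 0.041 to 0.32 in Bbs4-/- against WT, and adjusted p of 0.00150 to 0.0980 for any difference. The ranges were 0.92 to 1.47 for miR-29b in Bbs6-/-, and -0.046 to 0.55 in Bbs4-/-, below 0 without Bbs4-/- replicate 3. For miR-29c they were -0.57 to 0.19 in Bbs6-/-, above 0 without WT replicate 4, and -0.30 to 0.65 in Bbs4-/-, below 0 without Bbs4-/- replicate 1 (-0.30) or WT replicate 1 (-0.11). Calls over all miRNAs ran from 14 to 67 in Bbs6-/-, 27 to 55 in Bbs4-/-, 13 to 43 between the mutants and 43 to 88 for any difference. The cause was not tested, beyond the smaller number of libraries. Neither share of the family passed under any alternative (exact permutation p of 0.568 to 0.943 for miR-29b and 0.164 to 0.486 for miR-29c). No DESeq2 value is given for miR-29c in Bbs6-/-, where its adjusted p was NA, nor a filterByExpr value where miR-29c was filtered out. The replicate block of the labels could not be fitted, since the Bbs6-/- and WT columns carry other numbers. A replicate block on the 4 column numbers, added after seeing the data and fitted to all 9 libraries with 3 residual degrees of freedom, left miR-29a at 0.86 in Bbs6-/- against WT (adjusted p = 0.00325, edgeR) and at -0.55 between the mutants, where it no longer passed (adjusted p = 0.199, edgeR), and changed no other call of a member. It gave 59 calls over all miRNAs in Bbs6-/-, 60 in Bbs4-/- and 34 between the mutants. Deviations from the genotype means correlated above 0.1 in 3 of 6 pairs of libraries with the same number (-0.13 to 0.37, median 0.11). Among pairs with different numbers, 3 of 21 did so (-0.29 to 0.15, median -0.028). The labels do not say what the numbers stand for, and whether they mark a shared batch was not tested. Depth limits miR-29c most, with 11 counts over the WT libraries.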

Other observations

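The proportion of miR-29b-1 to miR-29b counts varied between libraries, a pattern noticed in the values before it was tested. Of the counts of these rows together, miR-29b-1 made up 70.0%, 40.0% and 57.7% in Bbs4-/- replicates 1, 2 and 3. It made up 35.7%, 28.2% and 18.9% in Bbs6-/- replicates 2, 3 and 4, and 44.4%, 28.6% and 30.0% in WT replicates 1, 3 and 4. The Bbs4-/- libraries were above the Bbs6-/- libraries and overlapped WT, where the sums were 9, 7 and 20 counts. An exact permutation test over the 280 partitions, one-sided for a large spread between groups, gave p = 0.050, which is not under 0.05.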
